A study of Danio rerio with 6 samples.

Results

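The enzymes that build purine nucleotides from small precursors were examined in wild-type zebrafish embryos and in mutants of mycn, a transcription factor gene of the Myc family. The set held 10 genes, chosen by name as the steps of de novo purine synthesis, with earlier results of these data known. All 10 were found among the 21392 genes of the translation efficiency table. The genes were prps1a, ppat, gart, pfas, paics, adsl and atic, which lead to inosine monophosphate (IMP), and impdh1b, impdh2 and gmps, which turn IMP into guanosine monophosphate (GMP). Wild-type embryos were of the AB strain and the others were labelled Mycn mutant, with the allele and the zygosity not given in the sources used here. Embryos of both groups were raised in Danieau buffer without a further treatment named in the labels, and were taken at 72 h of development. The labels list 2 Ribo-seq samples per genotype, in which the stretches of mRNA covered by ribosomes are sequenced, and 1 RNA-seq sample per genotype. The material was the whole embryo, named in the labels as embryonic cells, with the number of embryos or clutches in a sample not given in the sources used here. The question was whether mRNAs of this pathway carried more or fewer ribosome footprints in the mutants.

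De novo purine synthesis assembles the purine ring atom group by atom group on phosphoribosyl pyrophosphate (PRPP), an activated ribose. The ring is closed as IMP, from which separate branches make AMP and GMP. Dividing cells depend on the pathway for DNA, RNA and energy carriers, and in human cells several of its genes are known targets of MYC proteins. In zebrafish the pathway also feeds pigment cells, since iridophores store guanine crystals and xanthophores make pteridines from GTP, and zebrafish mutants of gart and paics have pigment and eye defects.

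Each value was a translation efficiency, the footprint abundance of a gene divided by its mRNA abundance, both per length and per library total. The library medians over all genes lay between 0.734 and 0.752, and 17601 genes above 0 in all 4 Ribo-seq libraries were tested, the 10 enzymes among them. For mycn itself the ratio was 0.446 and 0.302 in wild type and 0.429 and 0.342 in mutants, which overlap; a ratio does not measure the level of the transcript, so it does not check the genotype. The depth behind each ratio is unknown. A value shared by different genes of a library to 9 digits, as arises when few reads stand behind a ratio, made up 64.7% to 67.1% of the values above 0. Such values occurred in 5 of the 10 enzyme genes, namely in all 4 libraries for ppat, in 2 for impdh2 and in 1 each for gart, pfas and gmps. Footprints and mRNA both enter a ratio and were not analysed separately here, and in whole embryos fewer cells of a type and less RNA per cell cannot be told apart.

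In wild-type embryos most of these mRNAs carried more footprints per mRNA than the typical gene. The median of the 10 enzymes was 1.04 in each wild-type library, beside 0.762 and 0.765 for all tested genes. Values above the median of tested genes were found for 7 of 10 enzymes in replicate 1 and 8 of 10 in replicate 2. The highest level was that of pfas, at 2.13 and 1.71, the 92.1st percentile of tested genes. Next came gmps at 1.61 and 1.57 and gart at 1.55 and 1.60, whose ranges overlapped. The values of impdh1b (1.05 and 1.24), atic (1.19 and 0.996) and prps1a (1.03 and 1.09) followed, with ranges that overlapped each other. They were followed by ppat at 0.954 and 0.932 and paics at 0.734 and 0.802. The lowest were impdh2 at 0.649 and 0.660 and adsl at 0.485 and 0.517, the latter at the 20.3rd percentile. The wild-type ranges overlapped in 3 of the 9 pairs of neighbours in this order, and did not overlap in the other 6.

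**Figure D1:**
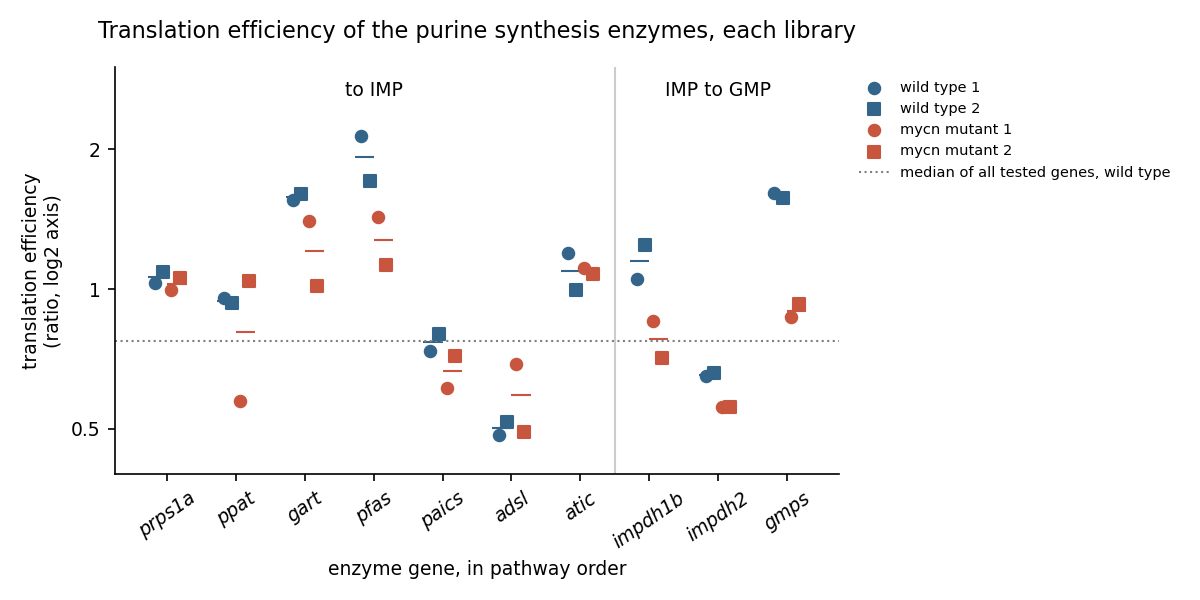
Translation efficiency of the 10 enzyme genes in pathway order, on a log2 axis, with a point for each Ribo-seq library, a short line for each genotype mean and a dotted line for the wild-type median of all tested genes. Both mutant values of gart, pfas, paics, impdh1b, impdh2 and gmps lie below both wild-type values, whereas those of prps1a, ppat, adsl and atic overlap them. The former order was found in 21.6% of all tested genes.

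Among the enzymes that lead to IMP, both mutant values lay below both wild-type values for gart, pfas and paics, and the groups overlapped for the other 4 genes. The former order was found in 21.6% of all tested genes and in 29.1% of those without repeated values. PRPP synthetase, encoded by prps1a, supplies the activated ribose. Its ratios were 1.03 and 1.09 in wild type and 0.997 and 1.05 in mutants. The log2 fold change was -0.044 (SE 0.187, limma adjusted p = 0.946). The 95% interval ran from -0.56 to 0.47, so differences of either sign up to about these sizes were not excluded. The amidotransferase ppat, the committed and feedback-regulated step, was at 0.954 and 0.932 in wild type and at 0.575 and 1.04 in mutants. The mutant replicates thus lay on either side of the wild-type values, and the log2 fold change of -0.25 (SE 0.320, adjusted p = 0.802) was 0.13 without mutant replicate 1 and -0.63 without mutant replicate 2.

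The gart product, which carries out several early ring-building steps in a single polypeptide, had ratios of 1.55 and 1.60 in wild type and 1.40 and 1.02 in mutants. The groups did not overlap, but the mutant replicates were far apart. The log2 fold change was -0.37 (SE 0.241, limma adjusted p = 0.613), and it was -0.16 without mutant replicate 2 and -0.59 without mutant replicate 1. For pfas, which uses glutamine to add a ring nitrogen, the ratios were 2.13 and 1.71 against 1.43 and 1.13. The wild-type mean of 1.92 ± 0.300 (SD, n = 2) stood against a mutant mean of 1.28 ± 0.215, with a log2 fold change of -0.55 (SE 0.244, limma adjusted p = 0.500). The pfas level was the highest of the 10 enzymes in all 4 libraries, and every mutant value lay below every wild-type value.

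The bifunctional carboxylase and synthetase paics was at 0.734 and 0.802 in wild type and 0.613 and 0.717 in mutants. These ranges were separate by a small margin, with a log2 fold change of -0.18 (SE 0.195, limma adjusted p = 0.761) that was -0.086 without mutant replicate 1 and -0.28 without mutant replicate 2. In the RefSeq annotation of the GRCz12tu assembly, paics and ppat are direct neighbours whose transcribed regions overlap. The submitters' processing notes name a different build, GRCz11, and the use of strand in counting was not given in the sources used here. How reads from the overlap were counted is therefore unknown. The ratio of paics to ppat was 0.769 and 0.860 in wild type and 1.07 and 0.690 in mutants. Adenylosuccinate lyase, encoded by adsl, acts both before IMP and on the way to AMP. Its ratios were 0.485 and 0.517 in wild type and 0.690 and 0.492 in mutants, the only log2 fold change above 0.1 among the 10, at 0.19 (SE 0.233, limma adjusted p = 0.797), and it was -0.021 without mutant replicate 1. The transformylase and cyclohydrolase atic, which closes the ring, was at 1.19 and 0.996 against 1.11 and 1.08. Its mutant values lay inside the wild-type range, with a log2 fold change of 0.0013 (SE 0.203, limma adjusted p = 0.999) whose sign turned under 5 of 12 other settings. The atic region overlaps that of its neighbour fn1b in the same annotation.

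All 3 GMP branch genes of the set had both mutant values below both wild-type values. This order was found in 21.6% of all tested genes and in 29.1% of those without repeated values. The paralog impdh1a, which acts at the same step as impdh1b and impdh2 but was not in the set, had overlapping groups (log2 fold change 0.23). GMP synthetase, encoded by gmps, adds the last amino group with glutamine, and it had the lowest log2 fold change of the set. Its ratios were 1.61 and 1.57 in wild type and 0.870 and 0.927 in mutants, with means of 1.59 ± 0.0309 (SD, n = 2) and 0.899 ± 0.0401. The replicates of each genotype differed by far less than the genotypes. With 1 RNA-seq sample per genotype, the replicates may share an mRNA measurement. This closeness and the interval given next may therefore miss its error. The log2 fold change was -0.76 (SE 0.189, 95% interval -1.28 to -0.24), lower than in all but 6.44% of tested genes. It had an unadjusted limma p under 0.05 and did not pass after Benjamini-Hochberg adjustment over all genes (adjusted p = 0.341). Over the fits without 1 library its log2 fold change ran from -0.80 to -0.72, with an adjusted p between 0.458 and 0.667, and the unadjusted p stayed under 0.05 in 1 of these 4 fits, that without mutant replicate 2. With a pseudocount of 1 in place of 0.1 the log2 fold change was -0.45.

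IMP dehydrogenase makes the substrate of GMP synthetase and is the rate-limiting step towards guanine nucleotides. The impdh1b ratios were 1.05 and 1.24 in wild type and 0.854 and 0.710 in mutants. These did not overlap and gave a log2 fold change of -0.50 (SE 0.214, limma adjusted p = 0.489). No impdh1b value was repeated elsewhere in its library, and in a fit of the 2626 genes of that kind alone its adjusted limma p was 0.169. The impdh2 ratios were closest between replicates, at 0.649 and 0.660 in wild type and 0.5567 and 0.5569 in mutants. The log2 fold change was -0.20 (SE 0.179, limma adjusted p = 0.713), a smaller difference than for impdh1b, although the intervals of both genes overlapped and the difference between them was not tested. With a pseudocount of 1 the log2 fold changes were -0.27 for impdh1b and -0.088 for impdh2. The paralog impdh1a had ratios of 0.725 and 0.598 in wild type and 0.959 and 0.648 in mutants. Its groups overlapped, with a log2 fold change of 0.23 (SE 0.264, limma adjusted p = 0.778), and 2 of its values were repeated in their libraries. The treatment of reads that match both copies of a gene pair was not given in the sources used here.

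**Figure D2:**
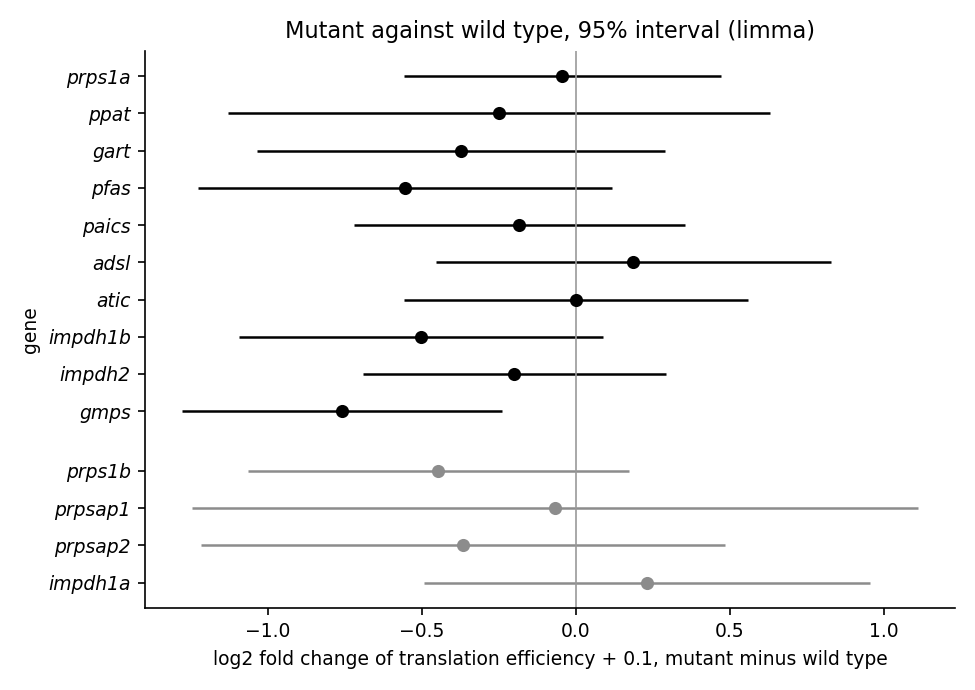
Log2 fold change of translation efficiency + 0.1, mutant minus wild type, for the 10 enzymes (black) and for related PRPP synthetase and IMP dehydrogenase genes (grey), with 95% intervals from limma and 2 libraries per genotype. The interval of gmps, from -1.28 to -0.24, is the only interval shown that leaves out 0, before adjustment for all tested genes.

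None of the 10 enzymes passed the test over all genes, and 0 of the 17601 tested genes did (0%, limma, adjusted p threshold of 0.05). At an unadjusted p under 0.05, 1 of the 10 was lower in mutants (gmps) and 0 were higher, whereas 11.5% of all tested genes were at that level, 4.71% lower and 6.78% higher. In the fit restricted to genes without repeated values, 36 genes passed (1.37%), and 0 of the 5 enzymes in it did. Both mutant values lay below both wild-type values in 6 of the 10 enzymes, beside 21.6% of all tested genes and 29.1% of those without repeated values. The opposite order was found in 0 of the 10, beside 23.1% of all tested genes and 22.7% of those without repeated values. The log2 fold change was below 0 for 8 of the 10, beside 48.7% of all tested genes and 53.6% of those without repeated values. Of the 5 enzymes without repeated values, 3 had a log2 fold change below 0. Among them paics and impdh1b had both mutant values below both wild-type values, and prps1a, adsl and atic overlapped. The median over those 5 was -0.044, beside -0.022 over all genes without repeated values. The median over the 10 was -0.23, beside 0.013 over all tested genes, with a range from -0.76 for gmps to 0.19 for adsl. Without mutant replicate 1 the median was -0.14, and with a pseudocount of 1 in place of 0.1 it was -0.10, both a move of over 1.5 times. A larger pseudocount shrinks log2 fold changes by arithmetic, so the latter move does not measure noise. With a pseudocount of 1 the other single values were also nearer to 0, such as -0.36 for pfas, -0.23 for gart, -0.12 for ppat, -0.087 for paics and 0.081 for adsl. Members of a pathway share libraries and, within a genotype, possibly the same mRNA measurement, so these counts describe the 10 genes and carry no test.

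The levels of the 10 enzymes were closer to each other in each mutant library than in either wild-type library. The highest value exceeded the lowest 4.40-fold and 3.31-fold in wild type, and 2.57-fold and 2.29-fold in mutants. The SD of log2(value + 0.1) over the 10 was 0.588 and 0.517 in wild type and 0.452 and 0.379 in mutants. Over all tested genes it was 1.03 and 1.05 against 1.07 and 1.09. The median percentile of the enzymes within a library was 71.0 and 70.5 in wild type and 57.3 and 64.0 in mutants. The enzymes with the highest wild-type levels were those with the more negative fold changes. On the log2(value + 0.1) scale the Pearson correlation was -0.76 over the 10 genes and -0.25 over all tested genes. The wild-type values enter both quantities, and for the 10 genes the smaller spread in mutants already makes this correlation negative. With the level from wild-type replicate 1 and the change from replicate 2, and the reverse, the correlation was -0.57 and -0.83 over the 10 and -0.077 and -0.075 over all tested genes; the points still share the mutant libraries and any common mRNA measurement.

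**Figure D3:**
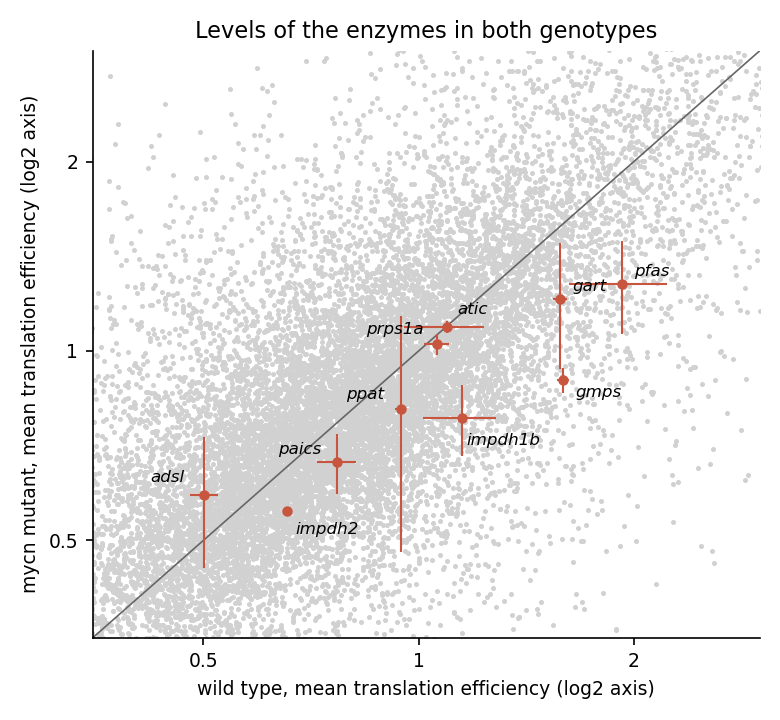
Mean translation efficiency in mutants against wild type on log2 axes, for the 10 enzymes (orange, with the SD of 2 libraries) and all tested genes (grey, those within the axes), with the line of equality. The enzymes with the highest wild-type levels, pfas, gmps and gart, lie below the line, prps1a and atic lie near it and adsl lies above it.

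Within each library, the GMP branch was also set against the steps to IMP. The mean log2(value + 0.1) of the 3 GMP branch genes minus that of the 7 genes to IMP was -0.022 and 0.085 in wild type and -0.27 and -0.30 in mutants. For these 3 and 7 genes, the means were therefore alike in wild type, and that of the GMP branch was lower in both mutant libraries. The wild-type means of single genes ran from 0.501 for adsl to 1.92 for pfas. The paralog impdh1a, which also acts from IMP towards GMP, was not among the 3. Its ratios were 0.725 and 0.598 in wild type and 0.959 and 0.648 in mutants. Its inclusion would lower the wild-type mean of the branch and narrow the contrast between genotypes, and means that include it were not taken. The ratio of gmps to impdh2, consecutive enzymes of the branch, was 2.48 and 2.38 in wild type and 1.56 and 1.66 in mutants. The ratio of gmps to adsl, which acts towards AMP, was 3.32 and 3.03 against 1.26 and 1.88. These pairs were chosen after their values were seen and carry no test.

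The remaining genes of PRPP supply and of the AMP and GMP branches did not share a direction. Of 16 tested genes, 7 had a log2 fold change above 0 and 9 below, none passed the test, and the median was -0.039. Both mutant values lay below both wild-type values in 2 of the 16 (12.5%) and above them in 3 (18.8%). Over all tested genes these shares were 21.6% and 23.1%. The second PRPP synthetase gene, prps1b, was at 0.849 and 1.06 in wild type and 0.741 and 0.607 in mutants, with no overlap and a log2 fold change of -0.45 (SE 0.225, limma adjusted p = 0.540), though all 4 of its values were repeated in their libraries. The PRPP synthetase associated proteins, which in mammals bind and restrain the synthetase, had log2 fold changes of -0.068 for prpsap1 and -0.37 for prpsap2 with overlapping groups. All 4 prpsap1 values and 2 prpsap2 values were repeated in their libraries. On the AMP side, adssl, an adenylosuccinate synthetase gene, was at 0.697 and 0.567 in wild type and 0.891 and 1.11 in mutants. This was a separation in the opposite direction to the 3 GMP branch genes of the set, with 2 adssl values repeated in their libraries. The log2 fold change was 0.59 (SE 0.225, limma adjusted p = 0.451). The related adss was at 1.18 and 1.14 against 1.38 and 0.803, and adssl1 at 0.919 and 0.933 against 0.839 and 0.821, so the synthetase genes did not move together. The adenylate kinase gene ak5 had 0.143 and 0.291 against 1.07 and 0.330, values that were all repeated in their libraries.

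Folate-dependent enzymes supply the formyl groups that gart and atic add to the ring. Of 24 tested genes in this list, 15 had a log2 fold change above 0 and 9 below, none passed, and the median was 0.087. Both mutant values lay below both wild-type values in 7 of the 24 (29.2%) and above them in 3 (12.5%). Over all tested genes these shares were 21.6% and 23.1%. The cytosolic mthfd1a, which makes formyl-tetrahydrofolate, had ratios of 1.42 and 1.62 in wild type and 1.03 and 0.966 in mutants. This non-overlapping difference gave a log2 fold change of -0.56 (SE 0.198, limma adjusted p = 0.428), with 1 value repeated in its library. The paralog mthfd1b was at 0.630 and 1.05 against 0.837 and 1.08, with overlapping groups and a log2 fold change of 0.20. Gcsha, which carries intermediates of glycine cleavage, was at 0.666 and 0.668 against 0.254 and 0.260, a log2 fold change of -1.10 (SE 0.190, limma adjusted p = 0.285). In the other direction, ggh, which trims folate polyglutamates, was at 0.518 and 0.562 against 1.13 and 1.14 (log2 fold change 0.95, SE 0.183, limma adjusted p = 0.290). All 4 values of both gcsha and ggh were repeated elsewhere in their libraries.

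Serine and glutamine supply carbon and nitrogen to the ring, and the 11 tested genes of this list had a median log2 fold change of -0.0037, with 5 above 0 and 6 below. None passed. The serine synthesis enzymes phgdh, psat1 and psph had log2 fold changes of -0.38, -0.33 and -0.093, each with both mutant values below both wild-type values. Over the 11 genes this order was found in 4 and the opposite order in 3, namely glula, glsb and gls2a, beside 21.6% and 23.1% of all tested genes. Asns, which makes asparagine with glutamine nitrogen, was at 1.22 and 0.895 against 0.491 and 0.779 (log2 fold change -0.67, SE 0.304, limma adjusted p = 0.510). Glutaminase gls2a was at 0.512 and 0.386 against 0.690 and 0.727, and glutamine synthetase glula at 0.719 and 0.695 against 1.03 and 0.863. Values repeated in their libraries numbered 4 for gls2a, 3 for glsb, 2 each for asns and glula, and 1 each for phgdh and psat1.

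Purine salvage and breakdown, which recycle or degrade bases instead of building them, had 15 tested genes above 0 and 10 below, with a median log2 fold change of 0.049. None passed, and 4 further genes of the list were listed at 0 in at least 1 library. Hprt1, the salvage enzyme for hypoxanthine and guanine, was at 1.16 and 1.40 in wild type and 1.13 and 1.22 in mutants, which overlap. Of these, 2 values were repeated in their libraries. Among the genes with the smallest p, ampd3b, an AMP deaminase, was at 1.16 and 1.02 against 0.656 and 0.366. The AMP deaminase genes ampd1, ampd2a, ampd2b and ampd3a had overlapping groups and log2 fold changes from 0.022 to 0.27. Of these only ampd1 had no repeated value. The adenosine deaminase gene ada2a was at 0.769 and 0.652 against 0.384 and 0.540, with 3 of its values repeated in their libraries. Ada, also an adenosine deaminase gene, had the opposite order, at 0.805 and 0.956 against 1.08 and 1.14, with 1 value repeated. The nucleoside phosphorylase pnp4b was at 0.785 and 0.107 against 1.23 and 1.73, so its wild-type replicates were far apart. All 4 values of both ampd3b and pnp4b were repeated in their libraries.

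Pyrimidine and deoxynucleotide synthesis had a median log2 fold change of 0.094 over 24 tested genes, with 14 above 0 and 10 below, and none passed. Some enzymes of this list, such as rrm1 and nme4, act on purine nucleotides too. Both mutant values lay below both wild-type values in 4 of these 24 genes (16.7%), and above them in 5 (20.8%), near the 21.6% and 23.1% of all tested genes. Cad, which starts pyrimidine synthesis, was at 0.727 and 0.666 in wild type and 0.736 and 0.579 in mutants. The CTP synthetase ctps1a was at 13.1 and 12.4 against 10.6 and 10.6, a log2 fold change of -0.27 at a level above that of every purine enzyme. Cad and ctps1a were chosen after their values were seen. By the smallest p, nme4, a nucleoside diphosphate kinase, was at 0.721 and 1.47 against 2.09 and 2.56, all repeated values. Next, dut, which removes dUTP, was at 0.570 and 0.387 against 0.324 and 0.328, and nme3 at 1.12 and 1.12 against 1.02 and 0.544. For dut and nme3, 3 values each were repeated in their libraries, and for cad 2. The difference between the purine and pyrimidine lists was not tested.

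**Figure D4:**
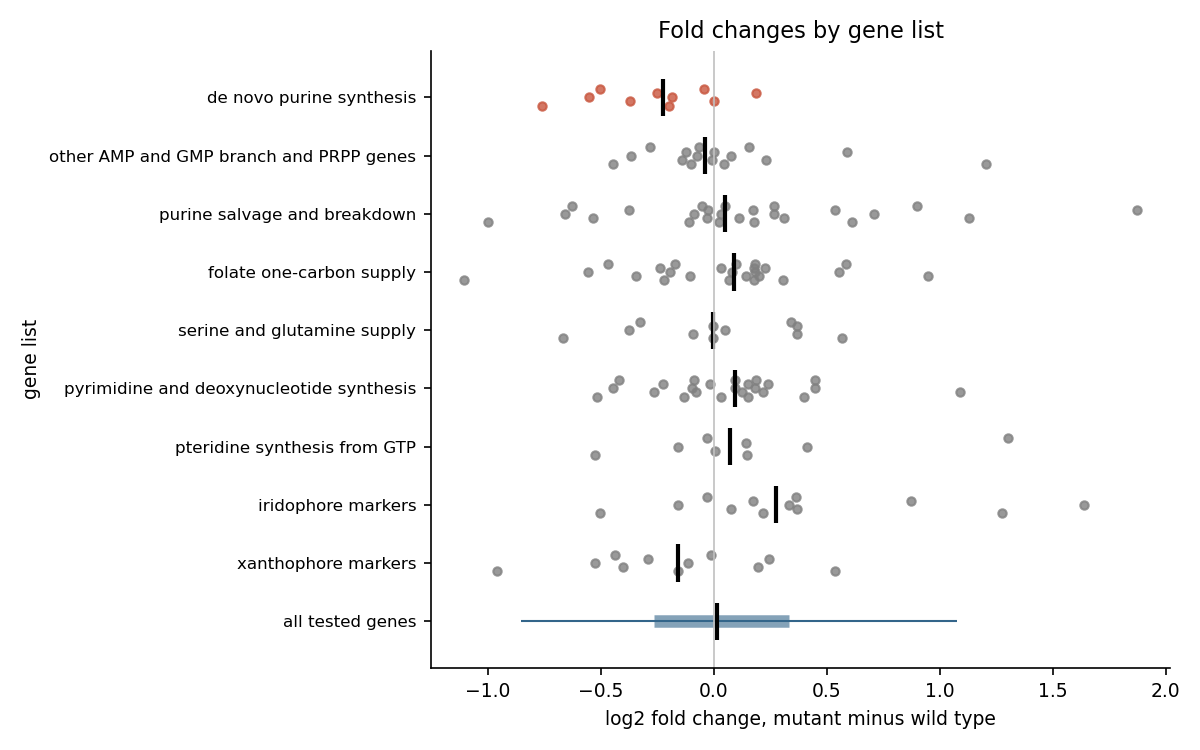
Log2 fold change, mutant minus wild type, for each tested gene of the purine synthesis set (orange) and of the other lists (grey), with a black line at each median; for all tested genes the thick bar spans the 25th to 75th percentile and the thin line the 5th to 95th. The purine synthesis median of -0.23 is the lowest of the medians drawn, and every list spreads across 0. Members and lists were chosen with earlier results of these data known. Over the 5 enzymes without repeated values the median was -0.044, beside -0.022 over all genes without repeated values.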

How the data were processed

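The authors deposited 1 table of ratios, with a translation efficiency for each gene and each of 4 Ribo-seq samples, and the file headers name FPKM values as their origin. The submitters' processing notes name STAR, featureCounts, limma and the build GRCz11, without roles or versions. The RNA-seq sample used as denominator was not given in the sources used here. With 1 RNA-seq sample per genotype, the spread between replicates may miss any mRNA error, and the labels do not say that replicates were separate clutches, so p-values cover only the spread among these samples, which may be technical.

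Genes above 0 in all 4 libraries were fitted with limma (version 3.58.1, R 4.3.3) on log2(value + 0.1), two-sided, with eBayes and its trend option, with Benjamini-Hochberg adjustment over all tested genes and a threshold of 0.05. Each gene had 2 residual degrees of freedom. The log2(value + 0.1) scale understates the change of low ratios. The steps were tested on simulated data. Members, lists and tests were chosen with earlier results of these data known. Named genes were the 10 members, their paralogs, mycn, and the 3 genes of each list with the smallest p; others named were chosen after their values were seen. Gene neighbours came from RefSeq, in which all 10 symbols matched. Figures were drawn with matplotlib (version 3.10.9).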

Additional observations from a re-analysis of the deposited data

How the results depend on the processing

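No enzyme passed the test under any of the 12 alternatives, and 108 of 115 log2 fold changes of single enzymes kept their sign. The median over the 10 enzymes was -0.10 with a pseudocount of 1 and between -0.242 and -0.143 when 1 library was left out. Over the 5 enzymes in the fit of genes without repeated values it was -0.044, beside -0.022 over all genes of that fit. The number of genes past the threshold, 0 in the fit reported, was 6 with a pseudocount of 1, 177 with no filter on zeros and 36 among genes without repeated values. The sign of atic turned with a pseudocount of 1 (-0.00046), median centring (-0.024), quantile normalization (-0.053), without wild-type replicate 2 (-0.118) and without mutant replicate 1 (-0.018); without mutant replicate 1 that of ppat and adsl turned as well. When 1 library was left out, the log2 fold changes ran from -0.118 to 0.121 for atic, from -0.628 to 0.127 for ppat and from -0.021 to 0.394 for adsl. The cause was not tested. With the replicate number as a block the median was -0.23 and the lowest adjusted p among the enzymes, from limma, 0.446; same-numbered libraries did not deviate together (correlation of deviations 0.0097 over 17601 genes, which are not independent), so the numbers were not taken as pairs. A planned search of promoters for the CACGTG motif was not run, because promoter sequences were not used here. Groups of 2 libraries allow no test for outlying samples, and without read depth no counting error can be given.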

Other observations

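GTP is also the starting point of pteridines, the yellow pigments and cofactors made from it. Of 8 tested genes of pteridine synthesis, 5 had a log2 fold change above 0 and 3 below, with a median of 0.072, and none passed the test. GTP cyclohydrolase gch2, which starts pteridine synthesis in xanthophores, was at 1.16 and 1.15 in wild type and 0.836 and 0.712 in mutants, a log2 fold change of -0.52 (SE 0.196, limma adjusted p = 0.442). The regulator gchfr, which in mammals inhibits the cyclohydrolase, was at 0.354 and 0.240 against 0.782 and 0.962, a log2 fold change of 1.30 (SE 0.251, limma adjusted p = 0.290), with all 4 values repeated elsewhere in their libraries. Qdpra, which regenerates the cofactor tetrahydrobiopterin, was at 2.90 and 3.32 against 4.08 and 4.23.

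Of 12 iridophore markers, 9 had a log2 fold change above 0 and 3 below, with a median of 0.27. Both mutant values lay above both wild-type values in 7 of the 12 (58.3%) and below them in 1 (8.33%). Of 11 tested xanthophore markers 3 had a log2 fold change above 0 and 8 below, with a median of -0.16. Both mutant values lay above in 1 of the 11 (9.09%) and below in 3 (27.3%). Over all tested genes these shares were 23.1% above and 21.6% below. Among all tested genes 48.7% were below 0. None of either list passed. The genes gch2 and pts stand in both the xanthophore and the pteridine list, and pnp4a and xdh stand in the salvage list too. The marker list of iridophores holds impdh1b, which was among the 3 below 0. Fhl2b was at 0.700 and 0.537 in wild type and 1.47 and 1.80 in mutants (log2 fold change 1.28, SE 0.238, limma adjusted p = 0.290). The receptor kinase ltk, needed for iridophores, was at 0.927 and 1.12 against 1.46 and 2.61. For fhl2b 2 values were repeated in their libraries, for ltk 3, and for pnp4a and xdh 1 each. Pnp4a, the nucleoside phosphorylase that defines iridophores, was at 0.655 and 0.614 against 0.666 and 0.792. Among the xanthophore markers, the transcription factor pax7a was at 0.589 and 0.426 against 0.129 and 0.317, all repeated values, and xanthine dehydrogenase xdh at 1.02 and 0.897 against 1.22 and 1.67. Ratios do not measure how many pigment cells an embryo held.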
